A study of Mus musculus with 12 samples.

Results

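The diet effect of PA milk was compared between 2 layers of the small intestine, the intraepithelial layer (IEL) and the lamina propria (LP), that is, the difference between PA milk and ND libraries in LP minus the same difference in IEL. All 12 libraries of the series entered the comparison, 3 in each of 4 groups, and 12502 of the 23284 genes in the table were tested because they reached 1 FPKM in 3 or more libraries. Among them, 21 genes were followed in particular: every PA milk library lay above every ND library in 1 layer and below every ND library in the other, with a log2 fold change of 1 or more in both layers. FPKM is a read count per kilobase of transcript, scaled to the depth of the library, and every fold change given here is on the log2(FPKM + 1) scale, on which changes of low genes are understated.

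ILC3s were sorted from the small intestine of HR-1 mice, a hairless strain with a normal immune system, at 18 weeks of age. PA milk mice were pups born to mothers on the normal diet and nursed by mothers whose chow held added palmitic acid, and ND mice were nursed by mothers on the normal diet. The 4 groups were therefore PA milk IEL, ND IEL, PA milk LP and ND LP, all of the same strain and age, with no transgene. The sort gate in the study's methods was lineage negative, CD4+, Thy1+, CD25+ and Nrp1+, while a legend of the study has CD45+ in place of CD4+, so the genes of both are read here. Neither the labels nor the methods say whether a replicate is a separate mouse or a pool, so that p-values measure the spread between these samples, which may be technical.

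ILC3s are innate lymphoid cells that keep the gut barrier, mainly through interleukin 22 and interleukin 17, and they sense the tissue through cytokine receptors rather than antigen receptors. They lie both in the lamina propria, the connective tissue below the epithelium, and among the epithelial cells themselves, where the neighbours are enterocytes, goblet cells and Paneth cells. Id2, which binds E proteins and keeps them off DNA, is needed for all helper-like innate lymphoid cells to form.

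The genes of the sort gate were read first. Ptprc, the gene of CD45, and Cd4 each reached 1 FPKM in 11 of 12 libraries, Nrp1 in 10, Il2ra, the gene of CD25, in 8 and Thy1 in 7. Thy1 was listed at 0 in 5 libraries, among them PA milk LP replicates 1 and 2. Of the lineage genes that the sort excludes, Ly6c1 was listed at 1296 FPKM in ND LP replicate 2 and 2055 FPKM in PA milk LP replicate 3. Defining genes of the labelled cell were thus listed at 0 in some libraries and a gene of other cells was high in others. A value of 0 in this table does not show absence, since Rpl26, a ribosomal protein that every cell uses, was also listed at 0 in 6 libraries. In bulk samples of this kind, fewer cells of a type and less RNA per cell cannot be told apart.

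A pair of libraries stood apart. PA milk IEL replicate 2 held 4390 genes and PA milk LP replicate 2 held 5637 genes at 1 FPKM or more, whereas the other 10 libraries held between 7863 and 11378. Both sparse libraries belong to the PA milk groups, and values without them are given beside the opposite genes and beside several of the gene lists. Replicates of a group correlated with a Spearman rho of 0.48 to 0.9 over the genes tested.

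No gene was called for the difference of the diet effect between layers. The count was 0 of 12502 (0%) at an adjusted p below 0.05 by limma with Benjamini-Hochberg adjustment, in which every adjusted p of a gene named here was 1. At an unadjusted p below 0.05 there were 292 genes (2.34%), 114 with the PA milk effect higher in LP (0.912%) and 178 with it higher in IEL (1.42%). Of these 292 genes, 163 were higher in PA milk IEL and lower in PA milk LP, 100 were the other way round, 21 had the same sign in both layers and 8 had a layer with no difference. Over all genes tested, 5432 (43.4%) had fold changes of opposite sign. The choice of the 292 by the size of the difference favours opposite signs, so nothing is read from their count. The median difference over all genes was -0.03, with a median standard error of 1.74 for a gene. Both are on the log2 scale, so that only a gene differing between layers by well over 1.74 log2 units could stand out of the spread.

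Within a layer the calls were also 0 of 12502 (0%). In IEL 447 genes (3.58%) and in LP 588 genes (4.7%) were at an unadjusted p below 0.05 by limma. Over all genes tested, PA milk and ND differed by a median of -0.3 in IEL against -0.36 in LP, and by 0 and -0.05 without the 2 sparse libraries. PA milk libraries lay above every ND library for 371 genes in IEL (2.97%) and 371 genes in LP (2.97%), and below for 653 (5.22%) and 825 (6.6%). Groups were apart in both layers in the same direction for 82 genes (0.656%) and in opposite directions for 30 genes (0.24%), of which 21 (0.168%) had the fold change asked for in both layers.

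**Figure D1:**
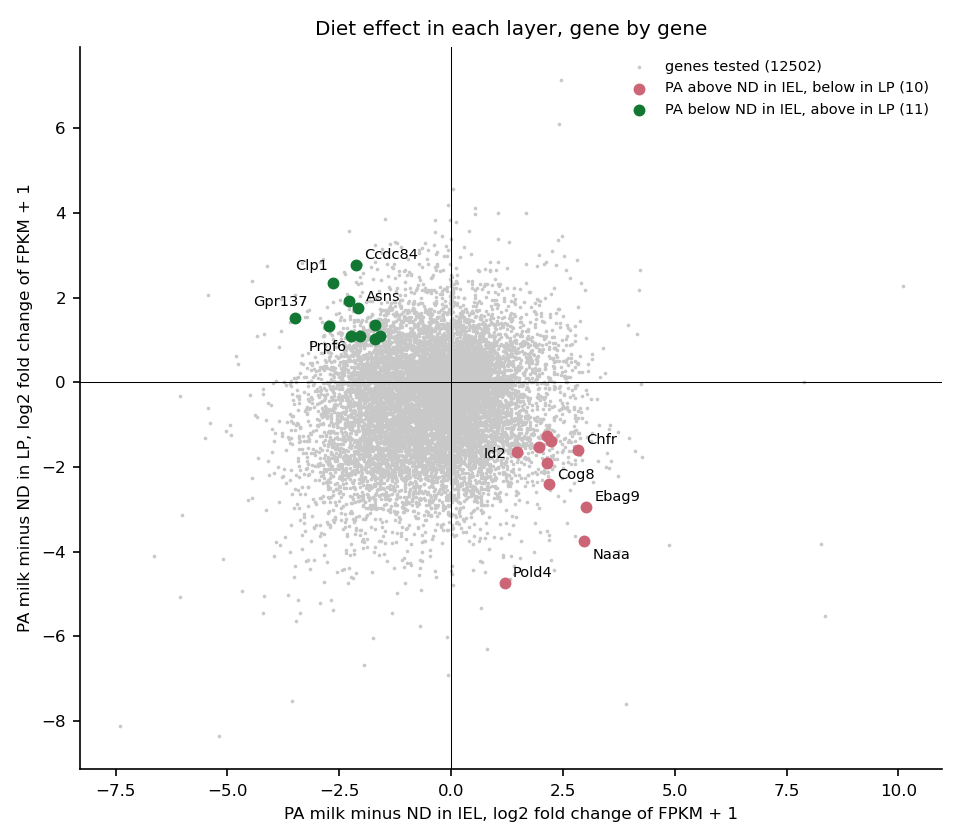
Each grey point is 1 of the 12502 genes tested, placed by its log2 fold change of PA milk against ND in IEL (horizontal) and in LP (vertical). The 10 red points lie to the lower right and the 11 green points to the upper left. They are the genes whose PA milk and ND libraries did not overlap in either layer and were ordered in opposite ways, and many grey points lie as far out.

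Of the 21 genes, 10 (0.08% of genes tested) were higher in PA milk IEL and lower in PA milk LP, and 11 (0.088%) were lower in PA milk IEL and higher in PA milk LP. The values of the same libraries chose these genes, so that their fold changes are a description. Just inside the limit on the fold change was Zfp598 with 1.02 in its weaker layer, and just outside was Ggps1 with 0.94. The limma p of the difference between layers was below 0.05 unadjusted for 16 of the 21, beside 2.34% of all genes tested, and nothing is read from this count because the same values chose the genes. The sparse library PA milk IEL replicate 2 was the lowest library in IEL, at under 1 FPKM, for all 11 genes that were lower in PA milk IEL. It was the highest for 7 of the 10 that were higher there, and PA milk LP replicate 2 was under 1 FPKM for 9 of these 10. Without the 2 libraries, all 21 kept fold changes of opposite sign, and 9 kept a fold change of 1 or more in both layers.

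Id2 (chr12:25093799-25097140, minus strand, protein coding) was the only gene of the 21 at 1 FPKM or more in all 12 libraries. It was listed at 110, 217 and 273 FPKM in ND IEL and at 750, 326 and 586 FPKM in PA milk IEL, in replicate order. In LP it was listed at 539, 455 and 546 FPKM with ND and at 190, 95.2 and 240 FPKM with PA milk. Every PA milk library thus lay above the ND libraries in IEL and below them in LP, with no overlap in either layer. The means were 200 ± 82.5 and 554 ± 214 FPKM in IEL, and 513 ± 50.8 and 175 ± 73.4 FPKM in LP, for ND and PA milk respectively (SD, n = 3). The log2 fold change was 1.48 ± 0.51 in IEL and -1.64 ± 0.51 in LP (± SE), and their difference was -3.12 ± 0.72 with an unadjusted p of 0.000497 and an adjusted p of 1 by limma. Over all alternatives tried the adjusted p of Id2 lay between 0.436 and 1. Without either sparse library the difference was -3.08. With ND the LP level of Id2 was above that of IEL in every library, and with PA milk it was below it in every library.

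Over the 12 libraries, the tested genes whose levels were most like those of Id2 on the log2(FPKM + 1) scale were Slfn10-ps, a pseudogene of the Schlafen family, with a Pearson r of 0.83, Gm10094 with 0.83 and the long noncoding RNA C030037D09Rik with 0.82. The points share their libraries and the 4 groups, so the values are a description. Gm10094 was listed between 190 and 396 FPKM with a difference of only -0.73 between layers, while Slfn10-ps and C030037D09Rik were listed at 0 in all 3 ND IEL libraries.

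The other genes that were higher in PA milk IEL and lower in PA milk LP had larger differences between layers and larger standard errors. Naaa (chr5:92257659-92278170, minus strand) encodes a lysosomal amidase that breaks down fatty acid ethanolamides, palmitoylethanolamide being its preferred substrate. It was listed at 7.29, 0 and 12 FPKM in ND IEL and 17.9, 201 and 12.8 FPKM in PA milk IEL. In LP it was listed at 15.0, 10.9 and 15.4 FPKM with ND and at 0.0352, 0.0412 and 0.207 FPKM with PA milk. All 3 PA milk LP libraries were close to 0. In IEL the lowest PA milk library, at 12.8 FPKM, was only just above the highest ND library, at 12 FPKM. Without the sparse libraries the IEL fold change of Naaa was 1.77. Its difference between layers was -6.72 ± 1.86, with an unadjusted p of 0.0024 by limma, and -5.47 ± 1.6 without the sparse libraries. Because the PA milk LP values were close to 0, the size of the Naaa difference depended on the pseudocount. With a pseudocount of 0.1 FPKM it was -10.37. Limma-voom gave a larger difference still and library weights a smaller one, both of the same sign.

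Pold4 (chr19:4231899-4233634, plus strand) encodes the smallest subunit of DNA polymerase delta, which is degraded after DNA damage. It was listed at 28.2, 26.9 and 35.0 FPKM in ND IEL and at 43.5, 164 and 47.1 FPKM in PA milk IEL. The LP libraries held 153, 63.7 and 50.1 FPKM with ND and 0, 0 and 25.2 FPKM with PA milk. The groups did not overlap, and Pold4 was listed at 0 in 2 of the 3 PA milk LP libraries. The difference between layers was -5.95 ± 1.7, with an unadjusted p of 0.00309 by limma, and -4.55 without the sparse libraries, when the IEL fold change was 0.59.

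Ebag9, which slows regulated secretion, was listed at 8.55, 0 and 8.96 FPKM in ND IEL, 16.2, 111 and 25.2 FPKM in PA milk IEL, 15.3, 25.0 and 13.0 FPKM in ND LP and 0.0574, 0 and 11.1 FPKM in PA milk LP. Chfr, a ubiquitin ligase of the mitotic checkpoint, was listed at 12.4, 0.0527 and 10.1 FPKM in ND IEL, 34.9, 81.4 and 18.4 FPKM in PA milk IEL, 10.9, 11.1 and 15.6 FPKM in ND LP and 9.92, 0 and 6.83 FPKM in PA milk LP. Cog8, a subunit of the complex that tethers vesicles at the Golgi, was listed at 31.4, 3.7 and 29.4 FPKM in ND IEL, 46.2, 205 and 39.8 FPKM in PA milk IEL, 30.1, 36.7 and 35.5 FPKM in ND LP and 26.6, 0.0481 and 27.3 FPKM in PA milk LP. In all 3 genes PA milk replicate 2 was the highest library in IEL and the lowest in LP, and ND IEL replicate 2 was the lowest of its group. Their differences between layers were -5.97, -4.44 and -4.04. Without the sparse libraries the LP fold change was -2.34 for Ebag9 but -0.53 for Chfr and -0.32 for Cog8.

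A further 4 genes of this direction had a mean under 5 FPKM. They were Dclk2, a kinase that binds microtubules, Mblac2, Slfn10-ps and Thada, with differences between layers of -3.64, -3.4, -4.59 and -3.49, and of -3.65, -2.08, -5.29 and -3.33 without the sparse libraries. Dclk2 and Slfn10-ps were listed at 0 in every ND IEL library, so that the size of their differences depends on the pseudocount. Dclk2 was listed at 11.4, 2.92 and 1.17 FPKM in PA milk IEL.

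Among the genes that were lower in PA milk IEL and higher in PA milk LP, Gpr137 (chr19:6938057-6942480, minus strand), a membrane protein of the lysosome, had the largest difference between layers. It was listed at 15.9, 48.6 and 26.6 FPKM in ND IEL and at 2.29, 0.0594 and 3.6 FPKM in PA milk IEL. The LP values were 12.1, 9.88 and 12.2 FPKM with ND and 51.8, 52.5 and 14.3 FPKM with PA milk. All 3 PA milk IEL libraries were well below the ND libraries, and in LP PA milk replicate 3 was only just above them. The difference was 5.01 ± 1.51, with an unadjusted p of 0.00451 by limma, and 4.08 ± 1.13 without the sparse libraries, the largest of the 11 genes there too.

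Clp1 (chr2:84722104-84727350, minus strand), an RNA kinase of transcript 3′ end formation and tRNA splicing, was listed at 23.7, 45.1 and 18.4 FPKM in ND IEL, 12.1, 0 and 5.79 FPKM in PA milk IEL, 16.4, 21.6 and 0.237 FPKM in ND LP and 26.8, 73.9 and 29.9 FPKM in PA milk LP. Prpf6, a scaffold of the spliceosome's tri-snRNP, was listed at 35.0, 67.6 and 41.1 FPKM in ND IEL, 23.1, 0 and 14.1 FPKM in PA milk IEL, 29.7, 35.0 and 10.5 FPKM in ND LP and 73.0, 60.5 and 43.9 FPKM in PA milk LP. In both genes PA milk IEL replicate 2 was at 0 and the groups were apart in each layer. They kept fold changes of 1 or more in both layers without the sparse libraries, at -1.57 and 1.9 for Clp1 and -1.3 and 1.3 for Prpf6 in IEL and LP. Prpf38a, a further spliceosome protein, and Ccdc84, a protein tied to splicing of minor introns, had differences of 4.21 ± 1.91 and 4.88 ± 1.95. Without the sparse libraries these were 2.75 and 2.77, and the IEL fold changes of -0.75 and -0.9 were then under the limit of 1. In each, 1 ND LP library was near 0, at 1.1 FPKM in replicate 1 for Prpf38a and 0.152 FPKM in replicate 1 for Ccdc84.

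Asns (chr6:7675169-7693254, minus strand), the asparagine synthetase that is raised under amino acid shortage, was listed at 30.1, 17.1 and 25.9 FPKM in ND IEL and at 12.4, 0 and 13.4 FPKM in PA milk IEL. Among LP libraries it was listed at 34.1, 26.5 and 4.31 FPKM with ND and at 82.3, 56.3 and 41.0 FPKM with PA milk. The groups were apart in both layers. The difference was 3.86 ± 1.67, with an unadjusted p of 0.0351 by limma, and 2.61 ± 1.18 without the sparse libraries. The rest were Cyb5r1, a cytochrome b5 reductase, with a difference of 3.33, Pias1, a SUMO ligase, with 3.12, Ccdc90a (now Mcur1), a regulator of mitochondrial calcium uptake, with 3.05, Zfp598, a ubiquitin ligase of stalled ribosomes, with 2.71 and Smad2, a transducer of transforming growth factor beta, with 2.7. These 5 had unadjusted p between 0.0577 and 0.116, and without the sparse libraries their differences were between 1.29 and 1.99.

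**Figure D2:**
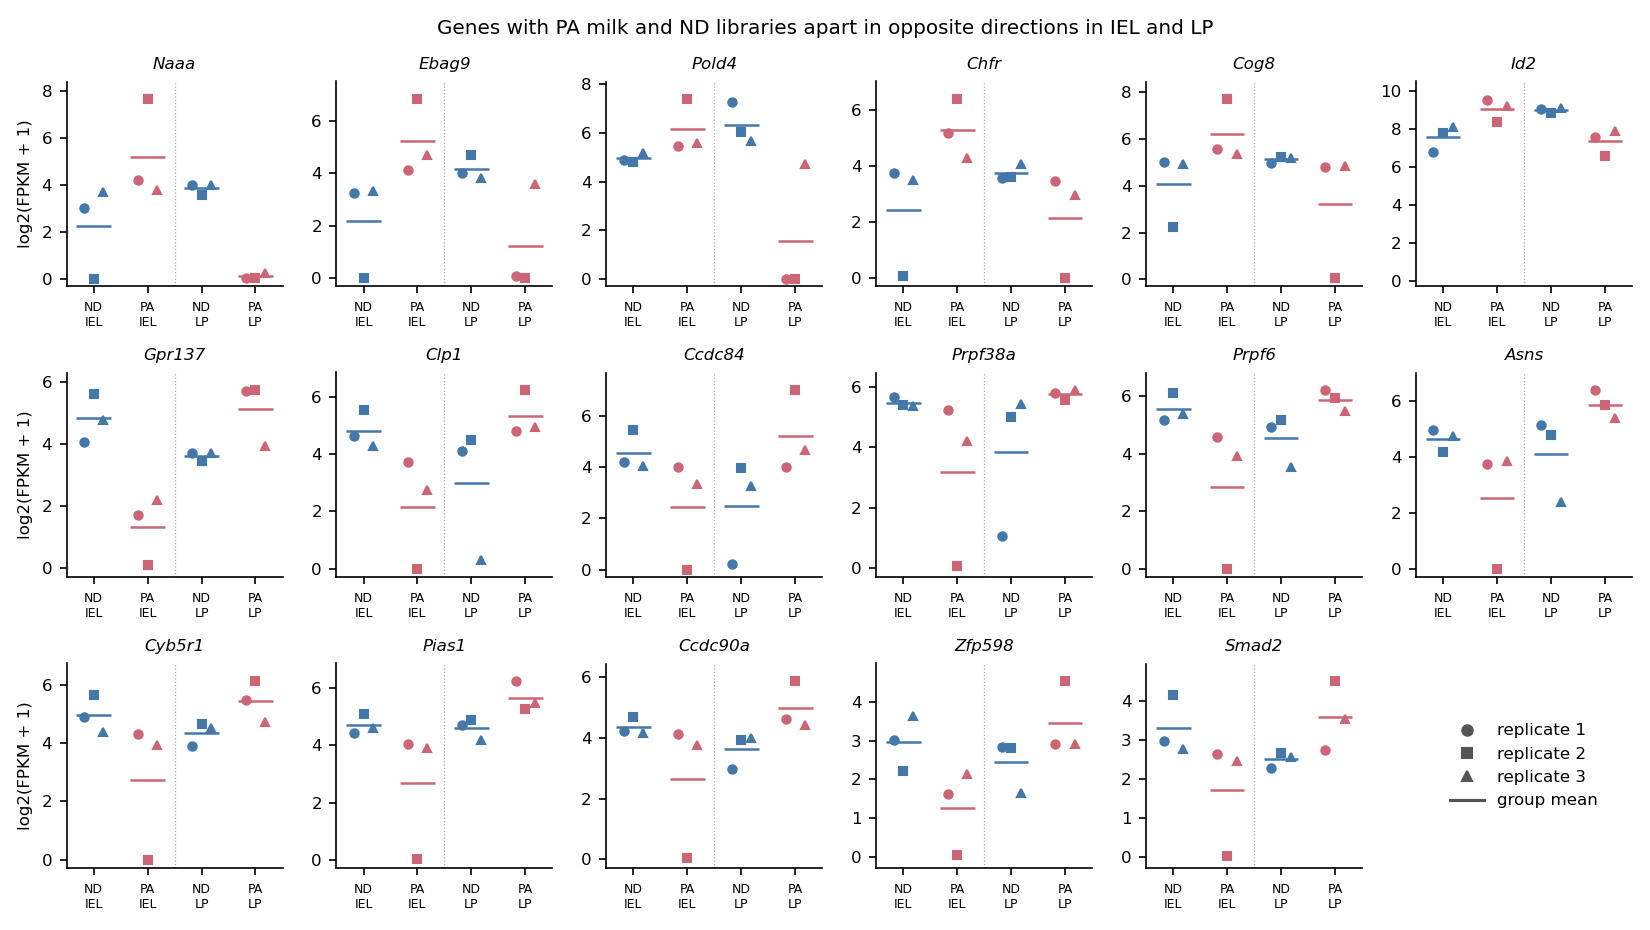
Each panel shows 1 of the 17 opposite genes with a mean of 5 FPKM or more, with log2(FPKM + 1) on the vertical axis, the 3 libraries of each group as points by replicate and the group mean as a bar. In the lower 2 rows PA milk IEL replicate 2 (red square) sits at or near 0 in every panel, while Id2 has no library near 0.

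**Figure D3:**
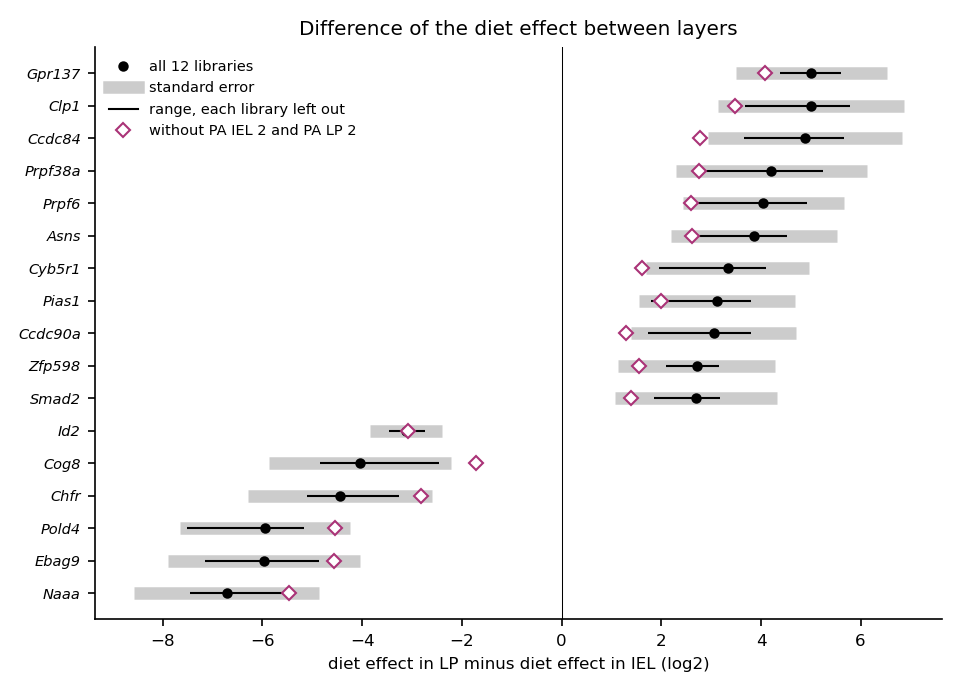
The horizontal axis is the diet effect in LP minus that in IEL on the log2 scale for the same 17 genes, with the estimate from all 12 libraries (dot), its standard error (grey bar), the range when each library is left out in turn (line) and the value without the 2 sparse libraries (diamond). All values keep their side of 0, and for Id2 the line runs from -3.46 to -2.74 with the diamond at -3.08.

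The stretch of 250 bases before the transcription start was read for the opposite genes from RefSeq (GRCm38.p6), in which 15 of the 17 named genes had a window. Promoters of Id2 and Pold4, which were higher in PA milk IEL, are shown beside those of Asns and Clp1, which were lower there, so that both directions can be compared. Capitals mark matches, on either strand, to the CCAAT box (CCAAT), the GC box (GGGCGG) and the amino acid response element (TGATGAAAC). The windows lie at chr12:25096093-25096342 on the minus strand for Id2, chr19:4231643-4231892 on the plus strand for Pold4, chr6:7693210-7693459 on the minus strand for Asns and chr2:84727288-84727537 on the minus strand for Clp1. The gene spans given above are those of GENCODE vM21, which places the outermost start of Id2, Asns and Clp1 further upstream than RefSeq, so that these windows lie wholly (Id2) or partly (Asns and Clp1) within the spans.
Id2: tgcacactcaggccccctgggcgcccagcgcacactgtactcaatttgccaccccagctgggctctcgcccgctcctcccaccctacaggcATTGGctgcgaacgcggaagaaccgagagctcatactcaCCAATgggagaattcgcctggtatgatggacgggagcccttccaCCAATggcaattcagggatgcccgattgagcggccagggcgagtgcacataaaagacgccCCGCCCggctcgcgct
Pold4: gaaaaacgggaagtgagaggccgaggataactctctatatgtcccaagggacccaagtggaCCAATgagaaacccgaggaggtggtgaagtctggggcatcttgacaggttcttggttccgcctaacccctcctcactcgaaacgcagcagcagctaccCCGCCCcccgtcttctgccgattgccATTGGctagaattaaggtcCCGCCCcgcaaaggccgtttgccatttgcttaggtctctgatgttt
Asns: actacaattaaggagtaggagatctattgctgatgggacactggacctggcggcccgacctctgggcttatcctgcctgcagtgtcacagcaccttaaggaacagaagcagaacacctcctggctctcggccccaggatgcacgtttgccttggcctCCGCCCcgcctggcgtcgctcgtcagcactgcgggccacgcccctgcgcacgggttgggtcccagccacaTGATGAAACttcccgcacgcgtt
Clp1: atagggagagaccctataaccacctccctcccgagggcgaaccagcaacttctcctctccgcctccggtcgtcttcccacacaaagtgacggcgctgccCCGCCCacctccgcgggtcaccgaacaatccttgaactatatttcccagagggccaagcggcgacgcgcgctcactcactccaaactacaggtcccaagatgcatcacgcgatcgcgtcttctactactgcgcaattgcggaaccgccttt

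Id2 had 3 matches to the CCAAT box and Pold4 2, while Asns and Clp1 had none. Of the genes not shown, Naaa and Cog8, of the direction of Id2, also had none. Gpr137 and Prpf38a, of the other direction, had matches. Gene counts below take a match in any window of a gene, and Gpr137 had 3 windows. In the group higher in PA milk IEL, 3 of 5 genes with a window held CCAAT and 5 of 5 held GGGCGG, against 2 of 10 and 8 of 10 in the group lower there. Of all 32851 windows in the table, 33.8% held CCAAT and 32.7% held GGGCGG on either strand. TGATGAAAC was found in 1 gene, Asns, and in 0.213% of all windows. The TATA box (TATAAA), found in 12.4% of all windows, the E-box (CACGTG), in 6.02%, the nuclear receptor element (AGGTCA), in 14%, and the cAMP response element (TGACGTCA), in 1.55%, had no match in the 15 genes. Matches to letters are a description of these windows and say nothing of binding.

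The order of the layers themselves was also compared between diets. The libraries of IEL and LP were apart in ND for 2412 genes and in PA milk for 1071. The order was the same with both diets for 271 genes (2.17%) and turned round for 26 (0.208%), 16 of which were higher in LP with ND. Of the 21 opposite genes, 10 were among these 26. Others were Dll1, a Notch ligand, at 17.9, 28.4 and 16.8 FPKM in ND LP but 0, 0.51 and 3.41 FPKM in PA milk LP, where ND IEL held 1.32, 15.5 and 8.18 FPKM and PA milk IEL 48.3, 84.0 and 6.37 FPKM. Mrps31, a mitochondrial ribosomal protein, was the other way round, at 80.8, 90.1 and 71.3 FPKM in ND IEL and 24.1, 3.18 and 16.3 FPKM in PA milk IEL, with 22.7, 29.3 and 54.4 FPKM in ND LP and 38.8, 75.1 and 38.3 FPKM in PA milk LP. Dll1 and Mrps31 were picked for this account after their values were seen.

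Gene lists were described by the number of members on each side and by the median of their differences, beside -0.03 over all genes, of which 49.2% were above 0. No member of any list passed the adjusted p by limma. Of 30 tested ILC3 genes, 24 had a diet effect that was higher in IEL, with a median of -1.9 (0.42 in IEL and -1.66 in LP), and 17 were higher in PA milk IEL and lower in PA milk LP. Leaving out each library in turn moved this median between -2.75 and -0.98, and without the 2 sparse libraries it was -2.14, with medians of 1.85 in IEL and -1.25 in LP. The genes of the sort gate lay the same way, with 4 of 5 below 0 and a median of -2.14 (0.61 in IEL and -1.54 in LP), and with 5 of 5 below 0 without the sparse libraries. The part of this shift in the ILC3 values was not tested. At an unadjusted p below 0.05 there were 4 ILC3 members (13.3%, beside 2.34% of all genes tested), Id2, Tcf7 and Cxcr5 with the effect higher in IEL and Tbx21 with it higher in LP. Tcf7 and Tbx21 are named here after their values were seen. Among LP libraries Tbx21 was listed above 0 only in PA milk replicate 3, at 24.8 FPKM. It held 10.3, 0 and 8.42 FPKM in ND IEL and 0 in all PA milk IEL libraries.

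Il22, the cytokine by which ILC3s act on epithelium, was listed at 81.5, 0.177 and 144 FPKM in ND IEL and at 565, 0.248 and 104 FPKM in PA milk IEL. The LP values were 0.164, 4339 and 198 FPKM with ND and 0.0886, 0.311 and 0.416 FPKM with PA milk. Its groups overlapped in both layers, and 1 ND LP library was also near 0, as the standard error of 3.69 beside a difference of -7.11 shows. Il22 had the highest mean of the ILC3 list through ND LP replicate 2, and in the other 11 libraries Id2, of the same list, was above it. Cxcr6 was listed at 43.9, 0.0925 and 92.0 FPKM in ND IEL, 270, 0 and 253 FPKM in PA milk IEL, 125, 93.1 and 65.8 FPKM in ND LP and 0, 0 and 48.9 FPKM in PA milk LP. Ccr6, the receptor of CCL20, had the same shape, with 27.9, 0 and 32.9 FPKM in ND IEL, 133, 0 and 117 FPKM in PA milk IEL, 117, 31.2 and 22.4 FPKM in ND LP and 0.0768, 0 and 15.3 FPKM in PA milk LP. For both receptors the PA milk and ND libraries of LP did not overlap, whereas in IEL they overlapped, with PA milk replicates 1 and 3 above all ND libraries and replicate 2 at 0. Their differences were -5.96 ± 2.99 and -5.44 ± 2.66, with unadjusted p of 0.064 and 0.0583 by limma. Il7r, the receptor of interleukin 7, went the other way with 0.97 ± 2.63, a value whose sign turned when libraries were left out.

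Of 21 chemokine receptors 17 had an effect that was higher in IEL, with a median of -1.68. Cxcr5, the receptor of CXCL13, was listed at 3.26, 0 and 0 FPKM in ND IEL, 10.7, 0 and 16.5 FPKM in PA milk IEL, 25.0, 6.46 and 21.0 FPKM in ND LP and 0, 0 and 0.038 FPKM in PA milk LP. Its LP groups did not overlap, and the difference was -5.87 ± 1.68 with an unadjusted p of 0.00303 by limma. Cytokine receptors had a median of -0.71, with 24 of 37 below 0. Il17re, a subunit of the receptor for interleukin 17C, held 0, 0 and 6.56 FPKM in ND IEL and 11.3, 105 and 8.21 FPKM in PA milk IEL. These IEL groups did not overlap. In ND LP it held 11.3, 4.57 and 0 FPKM, and with PA milk all 3 LP values were 0, so that the LP groups overlapped. Its difference was -5.58 ± 1.81. The early activation and residency gene Cd69 had -5.91 ± 2.34, with 75.9, 225 and 137 FPKM in ND LP and 16.0, 0 and 60.9 FPKM in PA milk LP, which did not overlap.

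B and plasma cell genes had the lowest median of all lists, at -2.81, with 18 of 20 below 0 and 4 (20%, beside 2.34% of all genes) at an unadjusted p below 0.05. Vpreb3, a B cell receptor chaperone, was listed at 158, 5.81 and 43.3 FPKM in ND LP and 0, 0 and 2.78 FPKM in PA milk LP, with 85.7 FPKM in PA milk IEL replicate 1. The most abundant gene of the list was Igj, the joining chain of secreted antibodies, at 17871 FPKM in PA milk IEL replicate 1 and 1.19 and 1.42 FPKM in the other PA milk IEL libraries. Pax5, a defining B cell factor, was listed at 0 in all 12 libraries. B and plasma cell genes held 3.3% of all FPKM in PA milk IEL replicate 1 and between 0.0285% and 1.14% elsewhere. Cxcr5 belongs to both this list and the ILC3 list, and the part of B cells in its values was not tested. MHC class II genes had a median of -1.22, with 12 of 15 below 0.

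In stromal and endothelial genes the median was -0.82. It was 0.3 without the 2 sparse libraries and 0.44 without PA milk LP replicate 2 alone. Ccl21a (chr4:42772860-42773993, minus strand), a chemokine of lymphatic vessels and lymph node stroma, had the smallest p of all genes for the difference between layers. It was listed at 19.4, 168 and 518 FPKM in ND LP and at 0 in all 3 PA milk LP libraries, and it was at or near 0 in all IEL libraries. The groups were fully apart in LP, and in IEL it was low with either diet. The size of the difference depends on the pseudocount, since PA milk LP is listed at 0. On the log2(FPKM + 1) scale it was -6.85 ± 1.56 by limma, with an unadjusted p of 0.00048 and an adjusted p of 1, which lay between 0.198 and 1 over the alternatives. Ccl21a has near-identical copies in the mouse genome, so its reads may be split among them. The list's most abundant gene, Plvap, was listed at 1158, 2633 and 1455 FPKM in ND LP and at 4504, 1.01 and 4458 FPKM in PA milk LP, so that Ccl21a was at 0 in libraries in which Plvap was high.

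Paneth cell genes lay on the other side. All 14 tested had a PA milk effect that was higher in LP, with a median of 3.55, and 5 (35.7%, beside 2.34% of all genes) were at an unadjusted p below 0.05. Their median fold change was -3.21 in IEL and -0.15 in LP. Pla2g2a, a secreted phospholipase that kills bacteria, was listed at 534, 22.8 and 596 FPKM in ND IEL and at 21.6, 0 and 0.139 FPKM in PA milk IEL. In LP it was listed at 560, 106 and 142 FPKM with ND and at 45.9, 252 and 364 FPKM with PA milk. The groups were apart in IEL and overlapped in LP, with a difference of 5.73 ± 1.95 and an unadjusted p of 0.00972 by limma. Pla2g2a is annotated as a polymorphic pseudogene in the reference strain. Ang4, an antimicrobial ribonuclease, was listed at 31.1, 0 and 85.8 FPKM in ND IEL and at 0 in all PA milk IEL libraries. The median of the list lay between 2.52 and 4.89 when each library was left out, and at 3.08 without the sparse libraries. Paneth cells are epithelial cells, which the sort gate does not select, and the most abundant gene of the list was Defa24. Defa20, Defa21 and Defa23 were listed at 0 in all libraries.

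NK and cytotoxic genes had a median of 1.82, with 16 of 19 above 0 and a median fold change of -2.01 in IEL and -0.26 in LP. Ifng was listed at 14.2, 0 and 28.2 FPKM in ND IEL and at 0 in all PA milk IEL libraries, and in LP it was listed above 0 only in PA milk replicate 3, at 22.2 FPKM. Gzma, a granzyme of killer cells, was listed at 273, 0 and 375 FPKM in ND IEL and at 0, 0.109 and 0 FPKM in PA milk IEL. In both genes ND IEL replicate 2 was at 0, so that the groups overlapped. The mast cell and eosinophil list had 5 of 8 genes above 0 and a median of 0.53, or 1.18 without the sparse libraries and -0.4 without ND LP replicate 3, and 3 of the 8 were higher in PA milk IEL and lower in PA milk LP. The pair of its members with the largest differences both lay above 0. Cpa3, a carboxypeptidase of mast cell granules, was listed at 53.8, 20.5 and 82.9 FPKM in ND IEL and 0.0821, 0.117 and 0 FPKM in PA milk IEL, with a difference of 4.83 ± 1.93. Gata2, a factor of mast cells and progenitors, was listed at 0.0238, 39.1 and 22.3 FPKM in ND LP and 38.5, 52.3 and 54.0 FPKM in PA milk LP and had 4.38 ± 1.98.

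In the type I interferon response 22 of 33 genes had an effect that was higher in LP, with a median of 0.82. Without the 2 sparse libraries this was 28 of 33 with a median of 1.76. Rsad2, the antiviral enzyme viperin, was listed at 0, 3.35 and 0.0807 FPKM in ND LP and at 57.5, 30.9 and 6.16 FPKM in PA milk LP, while all IEL libraries were between 0 and 1.06 FPKM. The LP groups did not overlap, and the difference was 4.19 ± 1.38 with an unadjusted p of 0.00788 by limma. Its neighbour Cmpk2, a mitochondrial nucleotide kinase, was listed at 0.0242, 20.7 and 7.36 FPKM in ND LP and 49.3, 36.1 and 21.9 FPKM in PA milk LP, also with no overlap, and had 3.56 ± 2.07. Interferon gamma GTPases had a median of -0.03, and 1.28 without the sparse libraries.

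Fatty acid oxidation and PPAR genes had a median of 0.64, with 21 of 32 above 0, and fatty acid synthesis genes a median of -0.8, with 17 of 23 below 0. Slc25a20, the carnitine carrier that takes fatty acids into mitochondria, was listed at 84.5, 120 and 65.6 FPKM in ND IEL and 21.0, 0 and 55.8 FPKM in PA milk IEL. Its IEL groups did not overlap, its LP groups did, and the difference was 3.63 ± 1.69, or 1.91 without PA milk IEL replicate 2. Angptl4, a PPAR target that blocks lipoprotein lipase, was listed at 27.9, 44.2 and 40.6 FPKM in ND IEL, 11.5, 0.0429 and 22.1 FPKM in PA milk IEL, 7.95, 6.05 and 17.7 FPKM in ND LP and 87.8, 103 and 2.86 FPKM in PA milk LP. It was lower in every PA milk IEL library, and in LP replicate 3 with PA milk was the lowest of all. Without the 2 sparse libraries the median of the fatty acid oxidation list was 0.21, and leaving out each library in turn moved it between -0.05 (without PA milk IEL replicate 2) and 1.08, across 0.

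Cholesterol synthesis genes had a median of -0.7, with 18 of 25 below 0. Sc4mol (now Msmo1), a sterol oxidase, was listed at 89.1, 66.0 and 73.1 FPKM in ND LP and 0.193, 0.0564 and 42.3 FPKM in PA milk LP, with overlap in IEL, and had -4.35 ± 1.72. Fdps, which makes farnesyl diphosphate, was listed at 155, 124 and 164 FPKM in ND LP and 29.9, 0.264 and 106 FPKM in PA milk LP and had -3.53 ± 1.68, or -1.69 without PA milk LP replicate 2. The PA milk libraries of LP were below the ND libraries for both. Enterocyte genes had a median of -0.31, with medians of -1.7 in IEL and -2 in LP. Without the 2 sparse libraries the median was -1.36, with 36 of 49 below 0 and medians of -0.58 in IEL and -2.34 in LP. Leaving out each library in turn moved the median of -0.31 between -1.32 and 1.28 (without PA milk IEL replicate 3), across 0. Rbp2, a retinol carrier of enterocytes, was listed at 51.7, 345 and 67.0 FPKM in ND LP and 0.671, 1.18 and 10 FPKM in PA milk LP, with overlap in IEL, and had -3.77 ± 1.53. Goblet cell genes had a median of -1.54, with 14 of 16 below 0, and -2.42 without the sparse libraries. Klk1, a kallikrein protease, was listed at 418, 62.5 and 155 FPKM in ND LP and at 11.1, 0.137 and 0.137 FPKM in PA milk LP, with overlap in IEL and a difference of -5.91 ± 1.66.

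Lists of processes that all cells share, and the list of leukocyte housekeeping genes, lay near the median of all genes. Cytosolic ribosomal proteins had a median of 0.04 over 77 genes, the respiratory chain 0.12 over 74, the proteasome 0.07 over 37, cell cycle and replication -0.08 over 46 and leukocyte housekeeping genes -0.14 over 32. Without the sparse libraries these medians lay between -0.24 and 0.11. Single members could still lie far out. Rps27, a ribosomal protein, had -7.74 ± 2.53, with 20.2, 0.234 and 1199 FPKM in PA milk LP. Rps27 and Rpl26 have many processed copies in the genome, so their values are uncertain.

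**Figure D4:**
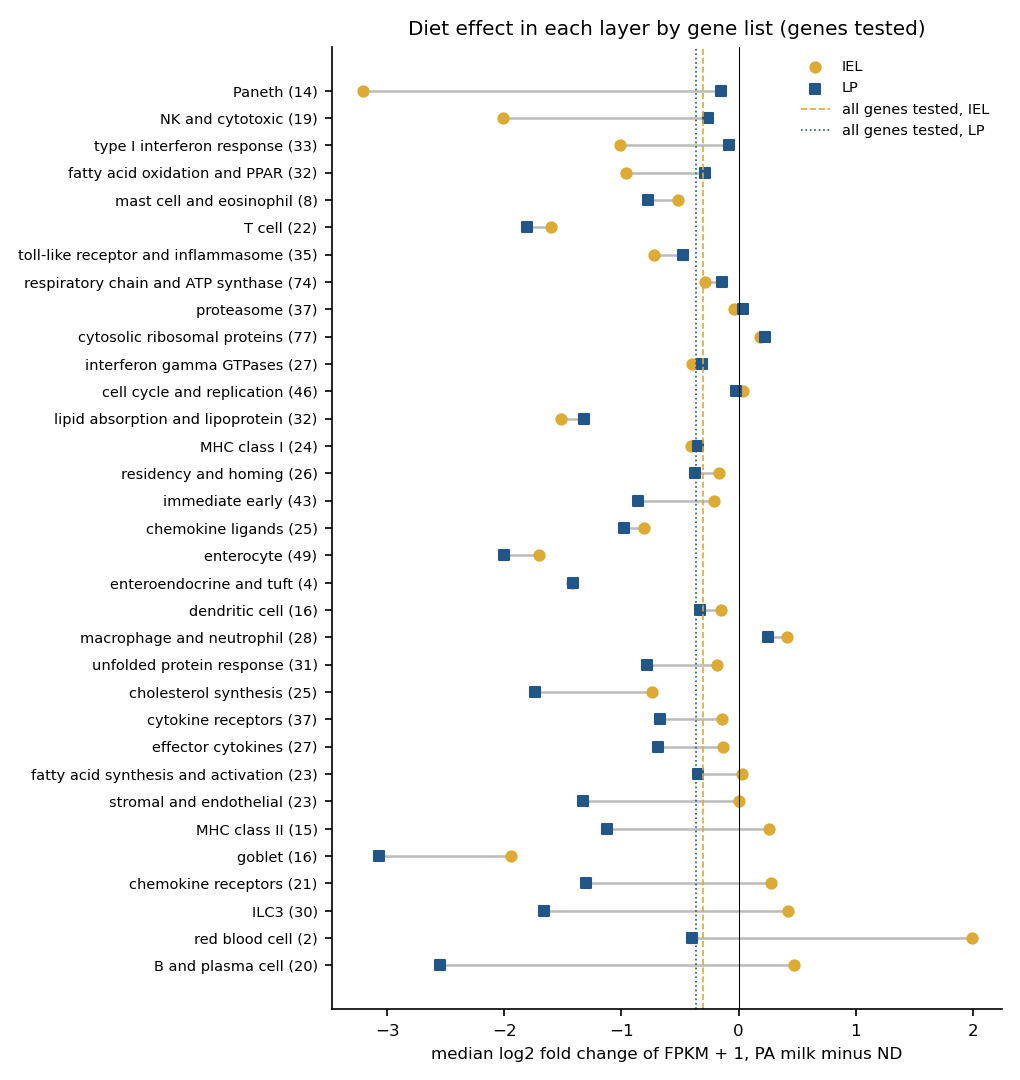
Each line is a gene list with the number of genes tested, placed by the median log2 fold change of PA milk against ND in IEL (circle) and LP (square). Vertical lines give the medians over all genes, -0.3 and -0.36. Among the lists plotted, which leave out the sort gate, the widest gaps are those of Paneth genes, with IEL the lower, and of B and plasma cell and ILC3 genes, with LP the lower, apart from the 2 red blood cell genes.

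The summed share of all FPKM held by each marker list was compared between diets within a layer by an exact permutation test, two-sided, with 26 tests over 13 lists and 2 layers. With 3 libraries against 3 the smallest p that such a test can give is 0.1, and the smallest adjusted p was 0.52. Paneth genes held 0.443% ± 0.343 of the FPKM of ND IEL and 0.026% ± 0.0214 of PA milk IEL (SD, n = 3, exact p = 0.1), with no overlap. The gap was very small, with 0.0493% in ND IEL replicate 2 and 0.0488% in PA milk IEL replicate 1. In LP Paneth genes held 0.483% ± 0.319 and 0.443% ± 0.336 (n = 3, exact p = 0.8). Goblet genes held 2.15% ± 1.84 of ND LP and 0.122% ± 0.079 of PA milk LP, enterocyte genes 1.96% ± 0.562 and 0.292% ± 0.165, and ILC3 genes 0.488% ± 0.501 and 0.0667% ± 0.0533 (n = 3 for each, exact p = 0.1 for each). The ND LP mean of ILC3 genes rested on replicate 2, with 1.07%, beside 0.195% and 0.202% in replicates 1 and 3. Enteroendocrine and tuft genes held 0.0245% ± 0.00319 of ND IEL and 0.0109% ± 0.00324 of PA milk IEL (n = 3, exact p = 0.1), also with no overlap. The 3 lists of LP did not overlap between diets in LP, and all overlapped in IEL. Stromal and endothelial genes held 1.37% of FPKM in PA milk LP replicates 1 and 3 but 0.0167% in replicate 2. The part of these shares in the differences between layers given above was not tested.

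**Figure D5:**
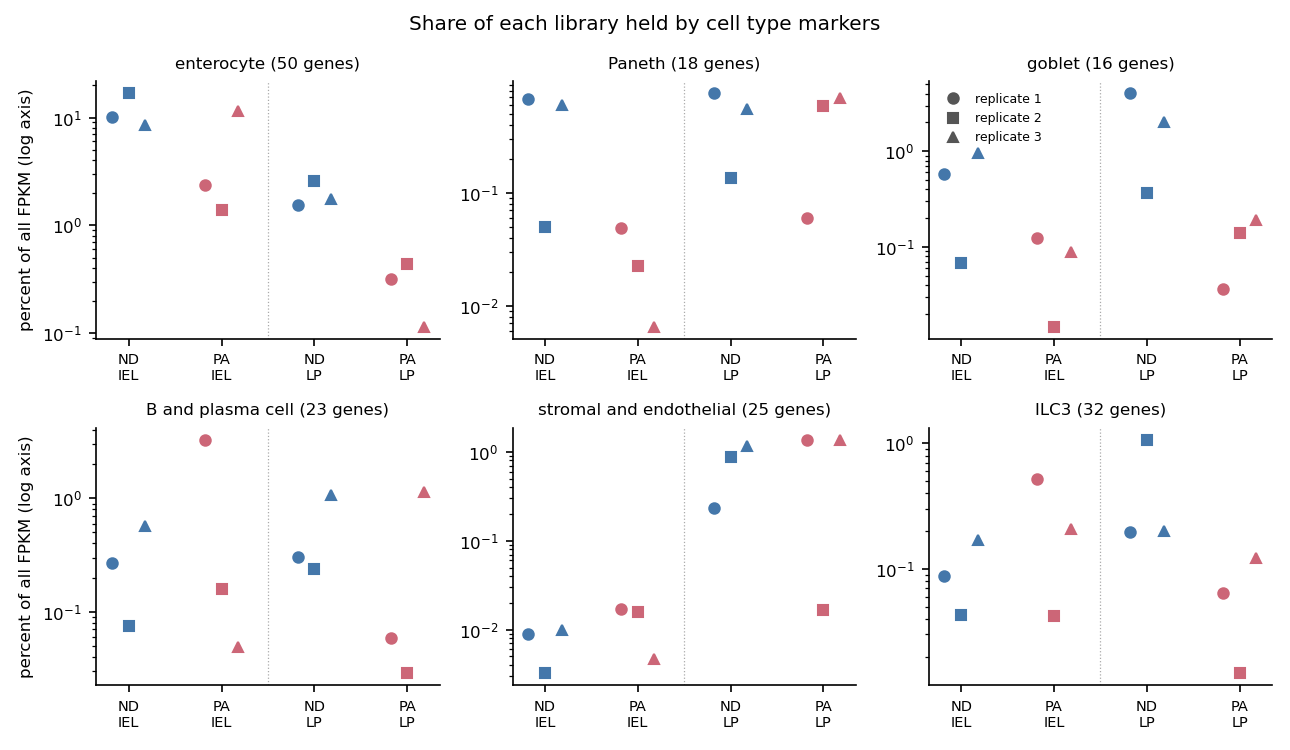
Each panel gives the percent of all FPKM (log axis) that the genes of a marker list held in each library, with points by replicate, ND in blue and PA milk in red. Paneth shares of the 3 PA milk IEL libraries lie below all ND IEL libraries, goblet, enterocyte and ILC3 shares of the PA milk LP libraries lie below all ND LP libraries, and stromal shares are low in IEL and in PA milk LP replicate 2.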

How the data were processed

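RNA was amplified as full-length cDNA with the SMART-Seq v4 kit, which keeps no molecular identifiers and no strand. The authors mapped reads to mm10 with TopHat2 2.1.1, Bowtie2 2.2.8.0 and SAMtools 0.1.18 and made FPKM values per gene with Cufflinks 2.2.1, and the labels also list Cuffdiff 2.2.1. The annotation is not given in the sources used here. The count table the authors deposited holds a scaled signal, counts divided by a factor per library and rounded, and not raw counts. It sums to 9376529 to 11710874 per library. FPKM values were also rescaled, gene by gene, to the units of this table. Steps between the low rescaled values correspond to about 8.73 to 14.58 M reads. Depth thus differed less than 2-fold, while genes detected differed more.

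Groups and replicate numbers came from the labels. FPKM values were tested with limma 3.58.1 (R 4.3.3, mean-variance trend) as log2(FPKM + 1), with 4 group means over all 12 libraries in 1 fit, a filter of 1 FPKM in 3 libraries, Benjamini-Hochberg adjustment over 12502 genes and a threshold of 0.05. Of genes just at the filter, 785 reached it in exactly 3 libraries. The study's methods name no test for these data, and how Cuffdiff was used is not given in the sources used here. Tables and plots were made with Python 3.11.15, numpy 2.4.6, pandas 2.3.3, scipy 1.17.1 and matplotlib 3.10.9, and the fit was tested on simulated data.

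The comparison, the members and the lists were chosen with earlier results of these data known. Named were the opposite genes with a mean of 5 FPKM or more without predicted symbols (up to 12 in each direction), the 2 members of each list with the largest difference between layers, the genes of the sort gate, genes the study names, and the 3 genes most like Id2. Coordinates and exon overlaps are those of GENCODE vM21 (GRCm38, the build mm10 names). Of the 17 opposite genes named, 5 share exon bases with another gene (Pold4, Chfr, Cog8, Gpr137 and Ccdc84), so that reads from those bases may belong to either. The other gene is on the same strand for Pold4 and Cog8 and on the opposite strand for the rest. Alternatives were other pseudocounts, filters and scalings, library weights, limma-voom, a replicate block and leaving out libraries. Leaving out both sparse libraries was chosen after seeing the data.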

Additional observations from a re-analysis of the deposited data

Results flagged for a closer look

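For 17 named genes the PA milk and ND libraries were apart in opposite directions in IEL and LP, which drew attention to them, and the limma test of the difference between layers gave an adjusted p of 1 for each. The differences were -6.72 for Naaa, -5.97 for Ebag9, -5.95 for Pold4, -4.44 for Chfr, -4.04 for Cog8 and -3.12 for Id2, which were higher in PA milk IEL and lower in PA milk LP. They were 5.01 for Gpr137, 5.0 for Clp1, 4.88 for Ccdc84, 4.21 for Prpf38a, 4.05 for Prpf6, 3.86 for Asns, 3.33 for Cyb5r1, 3.12 for Pias1, 3.05 for Ccdc90a, 2.71 for Zfp598 and 2.7 for Smad2, which were lower in PA milk IEL and higher in PA milk LP. Among the 17, Id2 was the only gene with every library at 1 FPKM or more.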

How the results depend on the processing

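The count of genes called for the difference between layers was 0 in every alternative except the replicate block, which called 1, Snord35b, with 320 genes at an unadjusted p below 0.05, and the unadjusted threshold itself, which gave 292. Deviations of same-numbered IEL and LP libraries correlated between -0.03 and 0.06. With replicates this variable, such values cannot tell whether same-numbered libraries share a mouse or pool. The labels and methods do not say. Leaving out each library gave 0 calls for this difference, 0 to 1 in IEL and 0 to 8 in LP (8 without PA milk LP replicate 3), and library weights gave 3 in LP. Genes at an unadjusted p below 0.05 numbered 234 to 600 when each library was left out (562 without PA milk IEL replicate 3, 600 without PA milk LP replicate 3), 640 with library weights and 565 without the 2 sparse libraries.

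Opposite genes numbered 5 at a log2 fold change of 2 or more, 15 with upper quartile scaling, 18 with leukocyte gene scaling (10 of the 21 among them), 112 without the sparse libraries (9 of the 21) and 32 to 81 when each library was left out, which asks less of a group of 2. Leaving out 1 library moved the list median of type I interferon from -0.04 to 2.74, of lipid absorption from -0.67 to 1.1 and of the unfolded protein response from -0.97 to -0.11. Ranges when each library was left out were also wide for enterocyte (-1.32 to 1.28), interferon gamma GTPases (-1.02 to 1.85), goblet (-2.66 to -0.47), NK (1.03 to 3.55), cholesterol synthesis (-1.37 to -0.13), MHC class II (-2.16 to -0.46), cytokine receptor (-1.32 to -0.09), stromal (-2.08 to 0.44), B and plasma cell (-4.22 without PA milk LP replicate 3 to -1.71 without PA milk IEL replicate 1), immediate early (-1.22 to 0.79), mast cell (-0.4 to 1.5), sort gate (-2.65 to -1.09), chemokine receptor (-2.49 to -0.99), fatty acid oxidation (-0.05 to 1.08) and fatty acid synthesis genes (-1.14 to -0.37). For the lists of shared processes and the leukocyte housekeeping list they stayed between -0.52 and 0.54. Of 88 named genes 6 turned sign in some alternative and none of the 17 opposite genes did. Il7r was -0.75 with library weights, -0.42 without ND LP replicate 1 and -1.41 without PA milk IEL replicate 2. Among differences printed above, 1 library also moved by over 1.5 times those of Il22 (-4.39 without ND LP replicate 2), Cd69 (-3.6 without ND IEL replicate 2), Gata2 (2.75 without ND LP replicate 1), Cmpk2 (2.32 without ND LP replicate 1), Rbp2 (-2.44 without PA milk IEL replicate 3) and Cog8 (-2.46 without PA milk LP replicate 2). The same held without PA milk IEL replicate 2 for Prpf38a (2.66), Prpf6 (2.64), Cyb5r1 (1.95), Pias1 (1.8) and Ccdc90a (1.74). Ptprc was -0.06 and Psmd11 -0.49 without PA milk IEL replicate 2, and Gfi1b 0.1 without ND LP replicate 1. Without the sparse libraries Ptprc was -0.23, Hbb-b2 0.65, Ndufs3 -0.21 and Psmd11 -0.02. When each library was left out, Il7r lay between -1.41 and 2.58, Ptprc between -0.06 and 2.89, Gfi1b between -3.22 and 0.1 and Psmd11 between -0.49 and 2.81. The causes were not tested. Voom moved the median of all genes to -0.96 in IEL and -1 in LP. With 3 libraries a group and a median standard error of 1.74 on the log2 scale, differences between layers of that size or smaller were not detectable.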
